A study of Mus musculus with 2 samples.

Results

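The rodent short interspersed elements (SINEs) B2, B3, B4, ID and BC1 were followed in a ChIP-seq experiment on mitotic mouse embryonic stem (ES) cells. Their rows were chosen by name from a table of reads per repeat type: 13 of the 952 rows matched, and all 13 had at least 100 input reads, the minimum set for analysis. They comprised 3 B2 rows (B2_Mm1a, B2_Mm1t, B2_Mm2), 2 B3 rows (B3, B3A), 4 rows of the B4 family (B4, B4A, RSINE1, ID_B1), 3 ID rows (ID2, ID4, ID4_) and 1 BC1 row (BC1_Mm). No row was named ID alone. ID_B1 carries an ID name but was grouped with B4, because RepeatMasker files it there.

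The ChIP sample was chromatin precipitated with an antibody to H3.3S31ph, the histone variant H3.3 carrying a phosphate on serine 31, and the input sample was sheared chromatin taken with no antibody. Both came from WT ES cells of strain 129S1/SvImJ, grown in serum with leukemia inhibitory factor, that were arrested for 12 hours with 9 µM RO-3306, which blocks the cyclin-dependent kinase CDK1, and collected 11 hours after it was washed out. There was 1 sample of each kind, sequenced in 2 lanes, so no difference has a replicate check, no p-value is given, and every interval is a 95% interval of counting error in these libraries. No source used here gives the purity of the mitotic population, and a table of repeats holds no genes by which the cell type could be checked.

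SINEs are short retrotransposons that encode no protein. They are transcribed by RNA polymerase III from a promoter inside their own sequence, built of an A box and a B box, and are copied into new sites by the machinery of L1 elements. B2 has a head derived from a transfer RNA and includes the youngest copies considered here; in mouse, B2 RNA can repress RNA polymerase II after heat shock and many B2 copies carry binding sites for CTCF. B3 is an older relative of B2, and B4 joins an ID-like head to a B1-like part. ID elements descend from BC1, a small RNA gene derived from alanine transfer RNA whose product acts in the dendrites of neurons. H3.3 is the histone H3 variant deposited outside of DNA replication, and serine 31, which canonical H3 lacks, is phosphorylated in mitosis.

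Bc1 was the one reference gene and sequence at hand for any of these rows. The gene is not itself a member: BC1_Mm counts reads of a repeat type, so its ratio is not that of this gene. The gene start is shown because it is the ID-type head that the ID and BC1 rows share. In RefSeq's GRCm38.p6 annotation Bc1 is a non-coding RNA gene of 154 bases on the plus strand of chromosome 7 (144914470 to 144914623). The 50 bases before its start and the first 50 bases of its transcript, at chr7:144914420-144914519, read as follows, with the A box in capitals.
Bc1: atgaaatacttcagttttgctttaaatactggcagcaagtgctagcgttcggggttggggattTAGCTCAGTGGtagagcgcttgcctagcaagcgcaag
The A box TAGCTCAGTGG occupies bases 14 to 24 of the transcript. Those 11 letters, searched on both strands, occurred in 20 of 32851 RefSeq promoter windows (0.0609%), and the run of 20 bases that begins with them occurred in 1 window, that of Bc1 itself. The ChIP table is built on mm9 and lists repeat types, not positions, so no reads were placed on this gene. Sequencing reads were 50 bp long. No source used here says how reads matching more than 1 row were assigned, as between a BC1 and an ID row or between related B2 or B4 rows.

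The tables held 12235477 ChIP and 8856751 input reads over both lanes. The 13 rows held 1608967 ChIP reads, 13.2% of the ChIP total, and 1315122 input reads, 14.8% of the input total. A ratio below is the percentage of all ChIP reads in the tables that fell in a row, divided by the same percentage for the input. Percentages are bound to sum to the whole, so a gain in some rows lowers the ratios of others. Over the 704 rows analysed, the median repeat had a ratio of 0.805, and what set that value was not tested. Each row is therefore also given relative to that median repeat, and families are set against each other by the quotient of their ratios, which does not depend on the scale between the libraries.

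**Figure D1:**
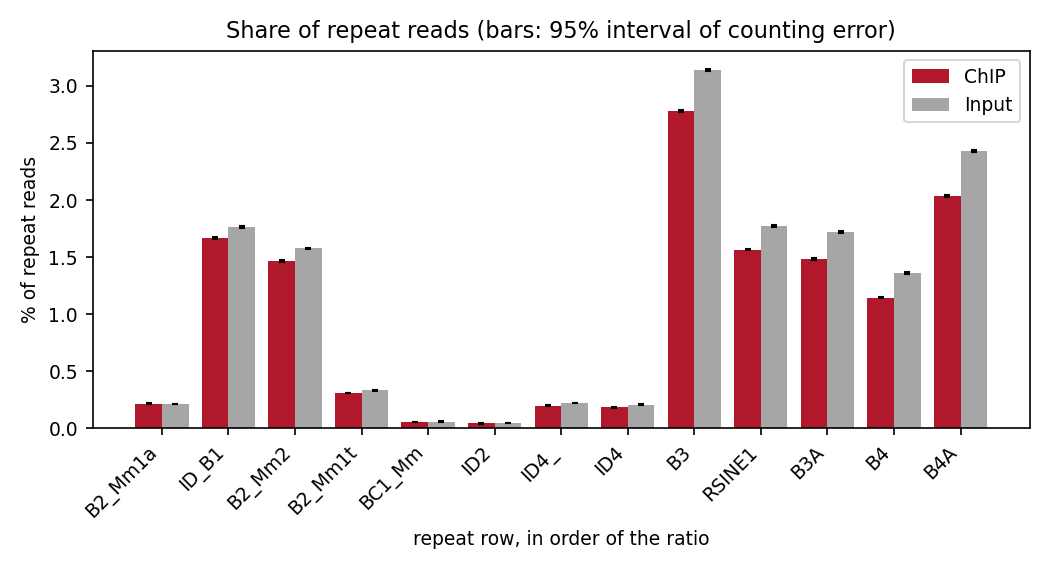
Share of all repeat reads (%) taken by each of the 13 rows in the ChIP (red) and the input (grey), rows ordered by their ratio; black bars are 95% intervals of counting error. B3 and B4A hold the largest shares, and B2_Mm1a is the one row whose ChIP share (0.217%) is above its input share (0.212%).

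All 13 rows lay above the median repeat, and 12 of them lay below the table average, a direction that changes on other scales between the libraries. The interval lay above the median repeat for 13 of 13 rows, against 27.3% of all rows analysed, and below it for 0 rows, against 19.2%. By ratio, this was shared with other SINEs and was not particular to these families. The 14 B1 and PB1 rows ran from 0.922 to 0.997 and the lowest of 4 MIR rows was 0.836, against 0.805 for the median repeat. Deep rows have narrow intervals, but 33.7% of the rows with at least 1000 input reads, a minimum that all 13 pass, also lay above the median repeat of those rows. By size alone, 9 of 13 rows exceeded the median repeat by over 1.1 times, against 22.3% of all rows; the 4 under that fold were RSINE1, B3A, B4 and B4A, and the rows nearest to it were B3 at 1.102 times and RSINE1 at 1.096 times. Set against the median of the rows with at least 1000 input reads, 6 of 13 exceeded it by that fold, against 22.7% of those rows. Against the table average, 1 of 13 rows had an interval above 1, against 7.81% of all rows, and 12 of 13 had one below 1, against 79.5%. Position relative to the table average therefore set these SINEs little apart from the other repeats. The median log2 ratio of the members was -0.16, and that of all rows analysed was -0.31.

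**Figure D2:**
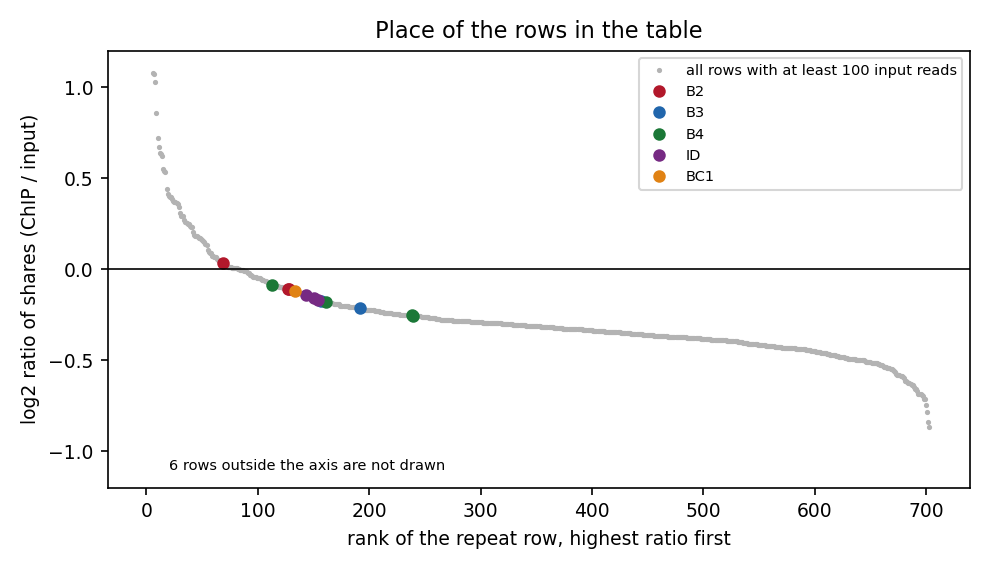
Log2 ratio of shares (ChIP over input) for the repeat rows with at least 100 input reads, ranked from the highest; coloured points are the SINE rows by family, and 6 rows outside the axis are not drawn. The SINE rows occupy ranks 69 to 239 of 704, from B2_Mm1a to B4A.

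Among the B2 rows, B2_Mm1a stood apart and the other two were not separable from each other. B2_Mm1a, one of the youngest B2 subfamilies, had 13683 ChIP reads in lane 1 and 12835 in lane 2, against 9557 and 9209 input reads. Its ratio was 1.02 (1.00 to 1.04), the highest of the 13, and 1.27 times the median repeat. Lane 1 alone gave 1.03 (1.00 to 1.06) and lane 2 alone 1.01 (0.988 to 1.04), so its place above the table average was not separable from 1 in lane 2.

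B2_Mm1t, the second row of the young Mm1 type, had 19411 and 18364 ChIP reads in the lanes, against 14889 and 14546 input reads, a ratio of 0.929 (0.915 to 0.943). B2_Mm2, the most abundant B2 row, had 91410 and 87796 ChIP reads, against 71055 and 68508 input reads, and a ratio of 0.929 (0.923 to 0.936). The quotient of B2_Mm2 over B2_Mm1t was 1.00 (0.984 to 1.02). In contrast, B2_Mm1a exceeded B2_Mm1t by a quotient of 1.1 (1.07 to 1.13) and B2_Mm2 by 1.1 (1.08 to 1.12). The higher pooled value of the 2 Mm1 rows over B2_Mm2, 1.04 (1.02 to 1.05), thus came with 1 of the 2 rows. The part that the assignment of reads between these related rows plays in their quotients was not tested.

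B3, from which the most input reads of any member came, had 340541 ChIP and 278006 input reads. Its ratio was 0.887 (0.882 to 0.891), 1.102 times the median repeat. B3A had 181490 ChIP and 152394 input reads and a ratio of 0.862 (0.856 to 0.868), 1.07 times the median repeat. The intervals of the B3 and B3A ratios did not overlap each other or that of any B2 row.

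The B4 family was the least uniform. B4 had 70872 and 69113 ChIP reads in lanes 1 and 2, against 60562 and 60191 input reads, a ratio of 0.839 (0.833 to 0.846). B4A had 126484 and 122956 ChIP reads, against 108772 and 106532 input reads, and also a ratio of 0.839 (0.834 to 0.843). These were the lowest of the 13 rows, 1.04 times the median repeat, and their quotient was 1.00 (0.991 to 1.01).

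RSINE1, an old rodent SINE of the same family, lay higher at 0.882 (0.876 to 0.888). ID_B1, whose name joins ID and B1, had 103010 and 101077 ChIP reads, against 79039 and 77519 input reads, and a ratio of 0.944 (0.937 to 0.950), second only to B2_Mm1a among the 13. Its quotient was 1.12 (1.11 to 1.14) over B4, 1.13 (1.12 to 1.14) over B4A and 1.07 (1.06 to 1.08) over RSINE1. Set against the families in its name, ID_B1 lay above the pooled ID rows by 1.06 (1.04 to 1.07) and just under the pooled B1 and PB1 rows by 0.989 (0.982 to 0.996).

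The ID rows lay close together, at 0.907 (0.871 to 0.945) for ID2, 0.895 (0.878 to 0.912) for ID4_ and 0.891 (0.874 to 0.909) for ID4. BC1_Mm had 3364 and 3225 ChIP reads in the lanes, against 2638 and 2545 input reads, a ratio of 0.920 (0.887 to 0.955). Over the pooled ID rows, whose ratio was 0.894 (0.883 to 0.906), BC1_Mm had a quotient of 1.03 (0.990 to 1.07), so a difference was not detectable at this depth. The pooled alanine transfer RNA rows, the gene family that BC1 comes from, had 2490 ChIP and 2035 input reads and a ratio of 0.886 (0.835 to 0.940). The quotient over them was 1.04 (0.970 to 1.11) for BC1_Mm and 1.01 (0.951 to 1.07) for ID.

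**Figure D3:**
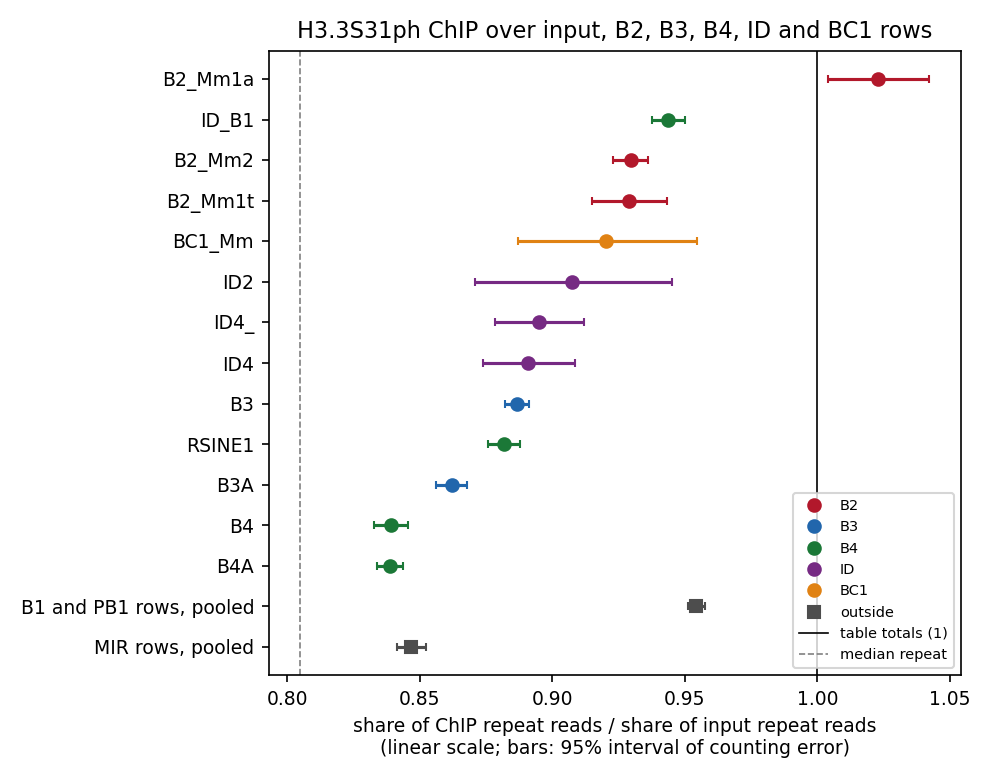
Ratio of shares (ChIP over input, linear scale) for each SINE row and, as grey squares, for the pooled B1 and PB1 rows and the pooled MIR rows; bars are 95% intervals of counting error, the solid line is the table average and the dashed line the median repeat. The rows descend from B2_Mm1a at 1.02 to B4A at 0.839, and each lies right of the median repeat at 0.805.

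Young B2 was then set against the older families. Pooled, the 3 B2 rows had 243499 ChIP and 187764 input reads and a ratio of 0.939 (0.933 to 0.944), and the 9 older rows of B3, B4 and ID had 1358879 ChIP and 1122175 input reads and a ratio of 0.877 (0.874 to 0.879). B2 exceeded the older rows by a quotient of 1.07 (1.06 to 1.08), at 1.07 in lane 1 and 1.07 in lane 2. The quotient was 1.07 (1.06 to 1.08) over B3, 1.07 (1.07 to 1.08) over B4 and 1.05 (1.03 to 1.06) over ID. Without ID_B1, B2 exceeded the older rows by 1.08 (1.08 to 1.09) and B4 by 1.1 (1.09 to 1.11). The quotient of B2 over BC1_Mm was 1.02 (0.983 to 1.06), not separable from 1 at this depth. A gap of this size has not been compared with the spread between cultures, which these data do not measure.

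Restricting B2 to the Mm1 rows widened the gap, but this came with B2_Mm1a and not with B2_Mm1t. B2_Mm1t and B2_Mm2 had like quotients, at 1.05 and 1.05 over the B3 row and 1.11 and 1.11 over the B4 row. The pooled Mm1 rows exceeded the older rows by 1.1 (1.09 to 1.11), and B2_Mm2 alone by 1.06 (1.05 to 1.07). With B2_Mm1a left out, the other 2 B2 rows still exceeded the older rows by 1.06 (1.05 to 1.07).

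Row by row the separation had exceptions. Of 27 quotients of a B2 row over an older row, 23 had an interval above 1, 3 included 1 and 1 lay below 1. B2_Mm1a was above all 9 older rows, by 1.08 (1.06 to 1.11) over ID_B1 up to 1.22 (1.20 to 1.24) over B4A. B2_Mm1t and B2_Mm2 were each above 7 of 9, with quotients over ID2 of 1.02 (0.980 to 1.07) and 1.02 (0.983 to 1.07). Over ID_B1, B2_Mm1t had 0.984 (0.968 to 1.00) and B2_Mm2 had 0.985 (0.976 to 0.995), the single quotient whose interval lay below 1.

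**Figure D4:**
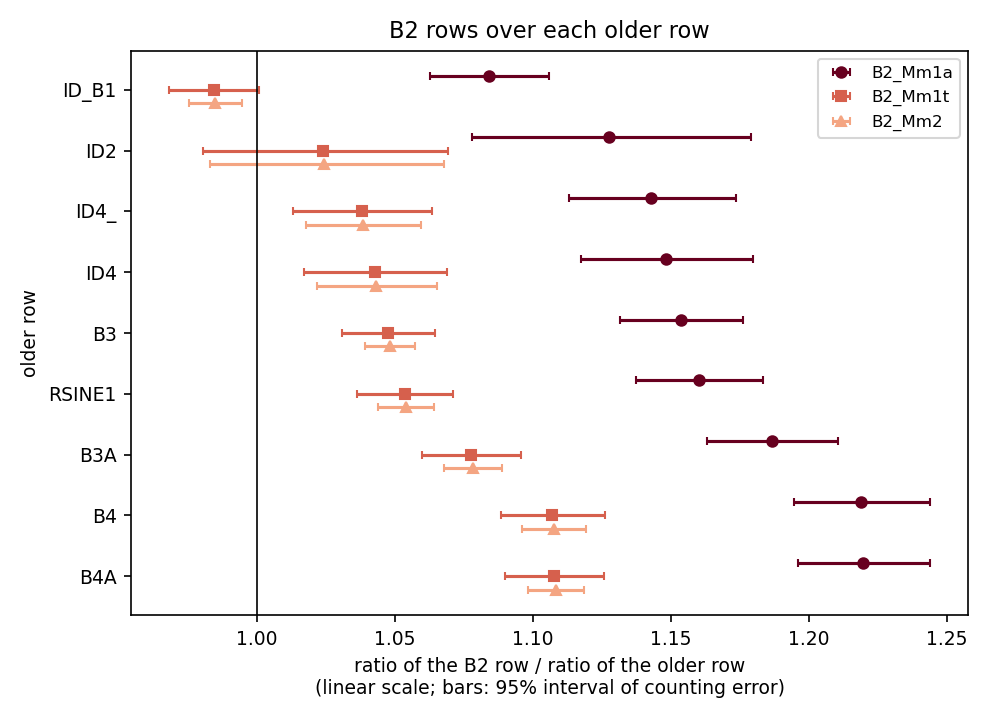
Quotient of the ratio of each B2 row over that of each older row (linear scale, bars are 95% intervals of counting error; 1 means equal ratios). B2_Mm1a lies above 1 against all 9 older rows, from 1.08 over ID_B1 to 1.22 over B4A, while B2_Mm1t and B2_Mm2 nearly coincide and fall to 0.984 and 0.985 against ID_B1.

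Among the older families the pooled quotients were nearer 1. B3 over B4 gave 1.00 (0.999 to 1.01) and ID over B4 gave 1.02 (1.01 to 1.04). In the single lanes ID over B4 was 1.03 (1.01 to 1.05) and 1.01 (0.996 to 1.03), so its interval included 1 in lane 2. The B4 pool contains ID_B1: without it B3 exceeded B4 by 1.03 (1.02 to 1.04) and ID exceeded B4 by 1.05 (1.04 to 1.06).

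Other SINE groups bracketed these families. MIR, an ancient SINE shared by mammals, had a pooled ratio of 0.847 (0.841 to 0.852), and B2, B3, B4 and ID exceeded it by 1.11 (1.1 to 1.12), 1.04 (1.03 to 1.04), 1.03 (1.03 to 1.04) and 1.06 (1.04 to 1.07). The B4 excess over MIR was 1.01 (0.999 to 1.01) once ID_B1 was left out. B1, the Alu-like SINE derived from 7SL RNA, was pooled with the PB1 rows. These 14 rows had a pooled ratio of 0.954 (0.951 to 0.957). They ran from 0.922 in PB1D10 to 0.997 in PB1D9, with B1_Mm at 0.945, and whether their ratios follow age was not tested. B2 lay under this pool by a quotient of 0.984 (0.977 to 0.991), and the Mm1 rows alone gave 1.01 (0.999 to 1.02).

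Transfer RNA rows, to which the B2 head is related, gave little to compare with. Of the lysine rows, tRNA-Lys-AAG had at least 100 input reads, with 132 ChIP and 120 input reads and a ratio of 0.796 (0.617 to 1.03). Of the serine rows, only tRNA-Ser-TCA(m) passed, with 26 ChIP and 282 input reads and a ratio of 0.0667 (0.0428 to 0.0999). The analysed alanine and lysine rows ran from 0.796 to 0.992, and none of them carries an (m) in its name. Whether tRNA-Ser-TCA(m) stands for the transfer RNA genes related to the B2 head was not tested, so its ratio is not read as theirs.

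The order of the 13 rows was largely one of steps smaller than counting error. From the highest ratio down it was B2_Mm1a, ID_B1, B2_Mm2, B2_Mm1t, BC1_Mm, ID2, ID4_, ID4, B3, RSINE1, B3A, B4 and B4A. Of the 12 pairs of neighbours, 4 differed beyond their 95% interval: B2_Mm1a over ID_B1, ID_B1 over B2_Mm2, RSINE1 over B3A, and B3A over B4. Over all 78 pairs, 56 did so, with no adjustment for their number, and all 56 had the same order in both lanes. The lanes make up the summed counts that gave these 56, so their shared order is not separate support. Spearman's rho between log2 ratio and input reads was -0.42 over the 13 rows, which share both libraries and include related subfamilies. ID2 and BC1_Mm, with the fewest input reads, lay mid-order, and ID_B1, with 156558, came next after B2_Mm1a. The part of depth or copy number in the order was not tested.

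The lanes, which are repeat runs of the same libraries, gave like values. For 13 of 13 rows the quotient of the lane 1 ratio over the lane 2 ratio had an interval that included 1. The log2 ratios of the lanes differed by a median of 0.010 and by at most 0.100, in ID2, which had the fewest reads: it had 2738 and 2491 ChIP reads against 2101 and 2071 input reads, and lane ratios of 0.938 (0.886 to 0.994) and 0.875 (0.826 to 0.928). In the authors' deposited table, whose log2 ratio is on another scale, the conservative value was above 0 for 5 of the 13 rows in lane 1 and 4 in lane 2, below 0 for 3 and 4, and at 0 for 5 and 5. In the authors' deposited table B2_Mm1a had the highest log2 ratio of the 13, 0.21 in lane 1 and 0.19 in lane 2, and the lowest was -0.088 for B4A in lane 1 and -0.09 for B4 in lane 2.

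**Figure D5:**
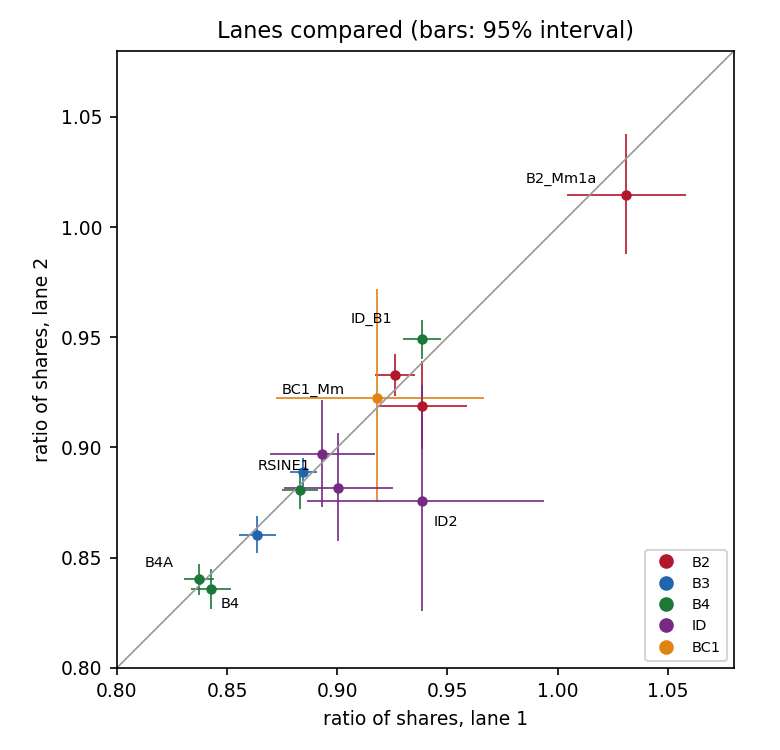
Ratio of shares (ChIP over input) in lane 1 against lane 2 for each SINE row, with 95% intervals of counting error; the diagonal marks equal lanes. B2_Mm1a is highest in both lanes (1.03 and 1.01), B4 and B4A are lowest, and ID2 lies farthest from the diagonal.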

How the data were processed

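H3.3S31ph ChIP and input reads from 1 sample each were taken from 2 deposited tables, 1 per lane. Per the submitters' processing notes, Bowtie 1.0.0 and build mm9 were used; no source used here says how the authors assigned reads to repeat types or whether they removed duplicates. As deposited, the values are unnormalised counts of reads for every repeat type, with 6204712 ChIP and 4467116 input reads in lane 1 and 6030765 and 4389635 in lane 2, beside the authors' deposited log2 ratio with its bounds. Checked against the tables, the log2 values deposited by the authors follow the counts with 0.5 added, less 1 constant for each lane, to within 0.00053; that constant gives the deposited scale. No molecular identifiers are described, so intervals cover counting error only.

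Counts were summed over lanes. Ratios of shares have exact conditional (Clopper-Pearson) intervals, and quotients of 2 ratios have Wald intervals on the log scale, both at 95% (Python 3.11.15, scipy 1.17.1). Poisson counts were simulated for the ChIP over input comparison (704 rows, 20 draws). The intervals held the true value in 95.2% of cases for ratios and in 95.0% for quotients (703 pairs of rows). The intervals assume such counts, so this checks their computation only. It cannot show whether real reads vary by more than counting error. Rows with at least 100 input reads were analysed, 704 in all. Every member is named. Members and lists were chosen with earlier results of these data known. Alternatives were single lanes, other scales, 0.5 or 1 read added, other read minimums, row medians and left-out rows. Old repeats were 125 MIR, L2 and DNA transposon rows. Bc1 sequence came from RefSeq (GRCm38.p6).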

Additional observations from a re-analysis of the deposited data

How the results depend on the processing

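The scale between the libraries adds the same constant to every log2 ratio, so it changed directions against the table average but enters no quotient between families. B2_Mm1a lay above 1 on all of these scales. Scaled to the median repeat, which added 0.31, the ratio turned to 1.17 for ID_B1, 1.15 for B2_Mm2, 1.15 for B2_Mm1t, 1.14 for BC1_Mm, 1.13 for ID2, 1.11 for ID4_, 1.11 for ID4, 1.1 for B3, 1.1 for RSINE1, 1.07 for B3A, 1.04 for B4 and 1.04 for B4A. The pooled ratio there was 1.17 for B2, 1.09 for B3, 1.09 for B4 and 1.11 for ID. Scaled to old repeats, which added 0.31, the ratio turned to 1.17 for ID_B1, 1.15 for B2_Mm2, 1.15 for B2_Mm1t, 1.14 for BC1_Mm, 1.12 for ID2, 1.11 for ID4_, 1.1 for ID4, 1.1 for B3, 1.09 for RSINE1, 1.07 for B3A, 1.04 for B4 and 1.04 for B4A. The pooled ratio there was 1.16 for B2, 1.09 for B3, 1.08 for B4 and 1.11 for ID. Without the 5 most abundant repeats, of which B3 is 1, a choice that added 0.20, the ratio turned to 1.09 for ID_B1, 1.07 for B2_Mm2, 1.07 for B2_Mm1t, 1.06 for BC1_Mm, 1.04 for ID2, 1.03 for ID4_, 1.03 for ID4, 1.02 for B3 and 1.01 for RSINE1. The pooled ratio there was 1.08 for B2, 1.01 for B3, 1.01 for B4 and 1.03 for ID. On the scale behind the authors' deposited log2 ratios, the ratio turned to 1.06 for ID_B1, 1.04 for B2_Mm2, 1.04 for B2_Mm1t, 1.03 for BC1_Mm, 1.02 for ID2, 1.01 for ID4_ and 1.00 for ID4. The pooled ratio there was 1.05 for B2 and 1.01 for ID. Under these scales, in the same order, the members' median log2 ratio was 0.15, 0.15, 0.043 and 0.0083. Members with an interval above 1 numbered 13, 13, 10 and 4, and those below 1 numbered 0, 0, 3 and 4; in lane 2 alone 0 members lay above 1. On the deposited scale the intervals of B3, BC1_Mm, ID2, ID4_, ID4 and the pooled ID rows included 1, so these were not separable from 1 there.

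Of 169 recomputed quotients between families, 167 kept their direction. Among the quotients from row medians, 11 lay outside the interval of the pooled value. Left-out rows also moved some values outside it. B2 over the older rows was 1.1 without B2_Mm2, and B2 over B4 was 1.1 without ID_B1. Of the 167, 4 gained and 2 lost an interval that excludes 1. The 2 changes of direction were B2 over the pooled B1 and PB1 rows and ID over the alanine transfer RNA rows. The first became 1.01 (0.999 to 1.02) without B2_Mm2. The second was 0.981 (0.900 to 1.07) in lane 2, and its pooled interval also included 1. B2 over BC1 became 1.05 (1.01 to 1.09) without B2_Mm2. With row medians in place of pooled reads, B2 over the older rows was 1.05. No paired analysis was possible because each group has 1 sample. Rows such as BC1_Mm and ID2, with 5183 and 4172 input reads, leave intervals wider than most gaps between members.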
